A study of Arabidopsis thaliana with 24 samples.

Results

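The aquaporins of Arabidopsis thaliana are a family of membrane channel genes, and 35 loci of the family were looked for by their locus codes on a table of transcript levels. The table held 27 of them among its 20777 loci. All 5 PIP1 and all 10 TIP genes were measured, with 4 of 8 PIP2, 5 of 9 NIP and 3 of 3 SIP genes. PIP2-2, PIP2-3, PIP2-7, PIP2-8, NIP2-1, NIP3-1, NIP4-1 and NIP4-2 were not analysed here. Gene names follow the hyphenated spelling of protein databases, in which PIP1-5 is the gene that gene databases list with a semicolon between its numbers. Levels came from 24 Affymetrix ATH1 arrays of Col-0 wild type plants raised in vitro on medium with 0 or 25 mM mannitol, which acts on the roots as an osmotic stress. The 4 stages were seedlings (their vegetative part, at growth stage 1.03) and leaf 3 when proliferating (day 9, 0.1 mm2), expanding (day 15, 7 mm2) or mature (day 22, 40 mm2), each with 3 control and 3 mannitol arrays. No allele, transgene or further agent separates the groups, and each array held RNA pooled from several plants and plates of 1 experiment. One label field names mannitol for every sample, controls included, so that samples were grouped by their titles and by the stress field. The comparisons ask whether aquaporin transcripts respond to mild, lasting osmotic stress, and whether the response depends on the stage of the leaf.

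Aquaporins let water cross membranes along its gradient, and some members also pass carbon dioxide, hydrogen peroxide, ammonia or boric acid. PIP proteins lie in the plasma membrane and TIP proteins in the membrane of the vacuole, the compartment that fills most of an expanding leaf cell, while NIP proteins are named after a soybean nodule protein and SIP proteins lie in the endoplasmic reticulum. In leaves, PIP and TIP channels carry much of the water that moves from the veins into growing and transpiring cells, and PIP1 proteins generally need a PIP2 partner to reach the plasma membrane.

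Values are log2 levels as deposited, so that a difference of 1 is a doubling, and array medians lay between 5.91 and 6.16. Calls are adjusted p-values under 0.05, from limma with Benjamini-Hochberg adjustment over all loci. Levels of different genes are not compared, because each gene has its own probes, and probes may be shared between members of near-identical sequence. The table has 1 value per locus, which does not show this. The means of NIP1-1 and TIP3-2 over all arrays lay below 4.10, the 25th percentile of the loci. The leaf stages were set against 4 genes of dividing cells (CYCB1;1, KN, PCNA1 and AN3), whose mean level was 9.98 to 10.1 on proliferating control arrays, 5.89 to 6.04 on expanding and 4.72 to 5.02 on mature control arrays. Of 3 photosynthesis genes chosen as leaf markers 0 were on the table. Of 7 root markers measured, 6 had group means between 3.37 and 4.88, and the exception, PYK10, encodes an enzyme of endoplasmic reticulum bodies that seedling shoots also make. The PYK10 mean was 10.73 in control seedlings, and 11.24, 6.70 and 5.06 in proliferating, expanding and mature control leaf. The 4 seed markers lay between 3.06 and 4.63 on every array.

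On medium with 25 mM mannitol NIP1-2 was higher in seedlings, expanding leaf and mature leaf, PIP2-5 in expanding and mature leaf, NIP1-1 in seedlings and TIP1-1 in mature leaf. PIP1-5 and PIP1-3 were lower in expanding leaf, and TIP2-1 was lower in proliferating and expanding leaf. In seedlings 2 of 27 members were called, both higher, where 1.45% of all loci were called and 1.17% were called higher. Proliferating leaf had 1 of 27, lower, against 1.81% of all loci called and 0.241% called lower. Expanding leaf had 5 of 27, with 2 higher and 3 lower, against 7.65% of all loci called, 4.02% higher and 3.62% lower. Mature leaf had 3 of 27, all higher, against 4.83% called and 2.99% called higher. Control and mannitol arrays did not overlap for 7 members in seedlings, 8 in proliferating, 11 in expanding and 10 in mature leaf, where 16.3%, 17.1%, 20.0% and 24.6% of all loci did not overlap. The median change of the members was -0.07 in seedlings, -0.09 in proliferating leaf, -0.09 in expanding leaf and 0.00 in mature leaf, beside medians of all loci of -0.01, -0.03, -0.02 and -0.04. The number of arrays limits what the counts can show.

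**Figure D1:**
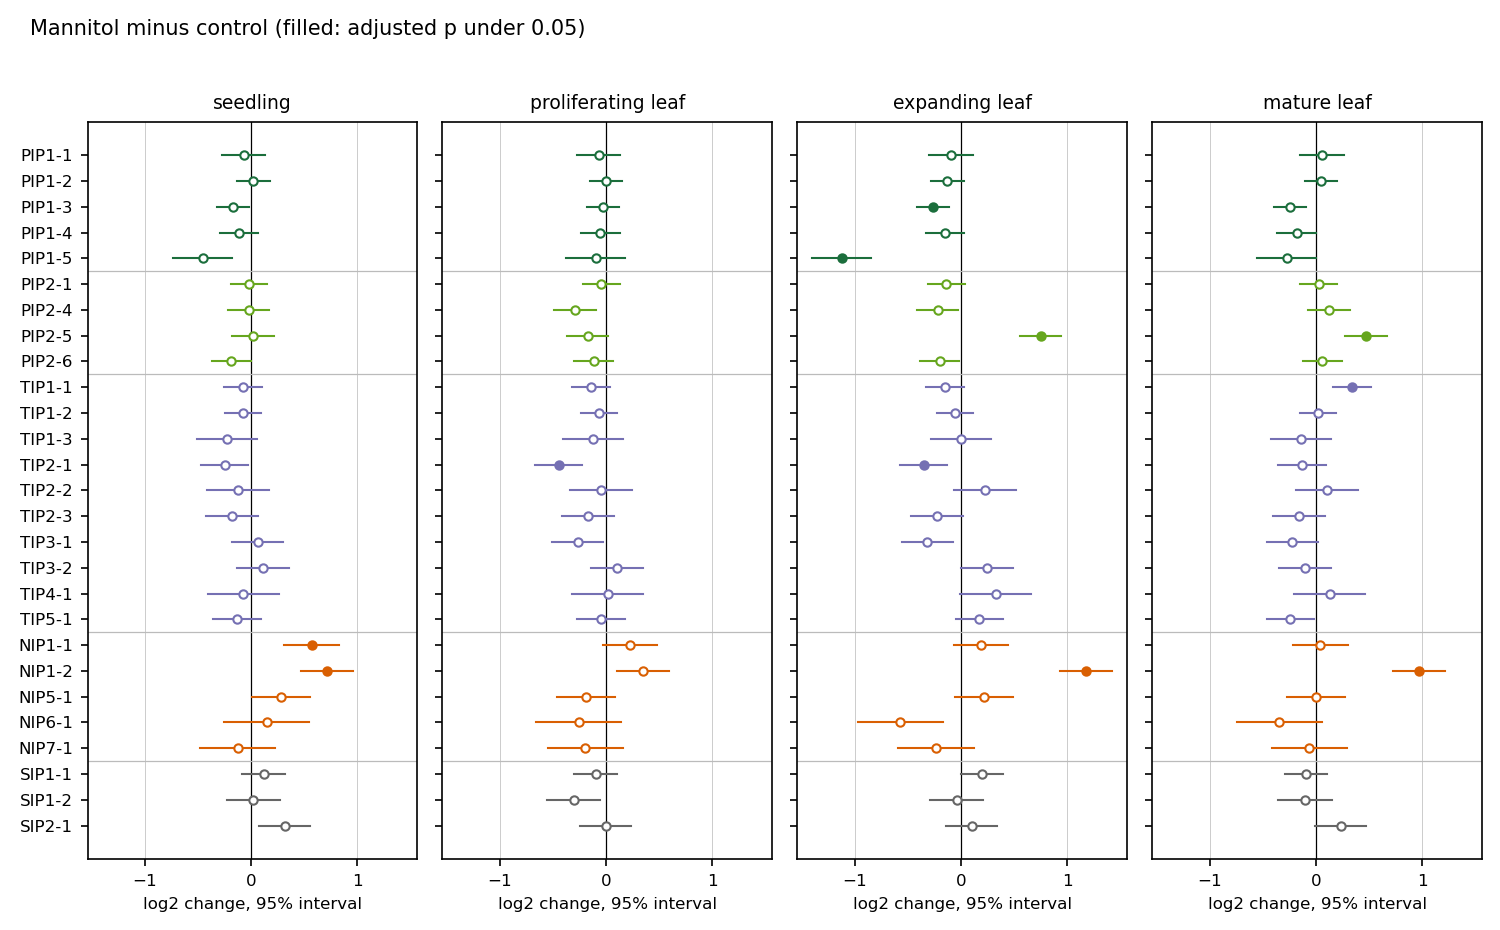
Log2 change of each of the 27 aquaporins between mannitol and control arrays, by stage, with 3 arrays a group. Points are estimates and lines 95% intervals, filled points have an adjusted p under 0.05, and colours mark the subfamilies. Most points lie near 0, and the largest changes are those of PIP1-5, PIP2-5 and NIP1-2 in expanding leaf and of NIP1-2 in mature leaf.

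Among the PIP1 genes, PIP1-5 (AT4G23400) had the largest response. Its levels in expanding leaf were 10.72, 10.75 and 10.69 on control arrays and 9.53, 9.66 and 9.62 under mannitol. All 3 mannitol arrays lay more than 1 log2 unit below all 3 control arrays. The means were 9.60 ± 0.0658 under mannitol and 10.72 ± 0.0305 in controls (SD, n = 3), and PIP1-5 fell by 1.12 on the log2 scale (SE 0.134, adjusted p = 5.04e-06), a 2.17-fold fall. Seedlings had 10.81, 10.59 and 10.60 without and 10.48, 9.87 and 10.29 with mannitol, and mature leaf had 10.77, 10.57 and 10.59 without and 10.30, 10.49 and 10.33 with it. The groups did not overlap at either stage, with mannitol lower, but the changes of -0.45 (adjusted p = 0.121) and -0.27 (adjusted p = 0.268) were not called. In proliferating leaf, where PIP1-5 was far lower, the levels of 6.78, 7.01 and 7.11 in controls overlapped the 6.59, 6.91 and 7.12 of mannitol leaf (change -0.09, adjusted p = 0.904).

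PIP1-3 (AT1G01620) had a smaller change. Control levels in expanding leaf were 11.66, 11.69 and 11.59, and those under mannitol were 11.40, 11.43 and 11.31. The groups did not overlap, and PIP1-3 fell by 0.26 (SE 0.0719, adjusted p = 0.0235). Mature leaf had 11.53 on each of the 3 control arrays and 11.33, 11.25 and 11.29 under mannitol, again without overlap, but the change of -0.24 (SE 0.0719) had an adjusted p of 0.0552 and was called only after each array was centred on its median or after quantile normalization. In seedlings the change was -0.17 (adjusted p = 0.471) and in proliferating leaf -0.03 (adjusted p = 0.960). The fall in expanding leaf was not called in a fit of those 6 arrays alone, nor after leaving out replicate 1 or 2 of the controls or 1 or 3 of mannitol, where its adjusted p reached 0.224 and the change stayed between -0.29 and -0.23. PIP1-1, PIP1-2 and PIP1-4 were not called at any stage, with changes between -0.18 and 0.06.

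PIP2-5 (AT3G54820), a plasma membrane channel, was the only measured PIP2 gene with a mannitol call. In expanding leaf the control arrays read 7.09, 7.08 and 7.27 and the mannitol arrays 8.08, 7.91 and 7.70. In mature leaf the control arrays read 6.24, 6.21 and 6.27 and the mannitol arrays 6.72, 6.75 and 6.67. Every mannitol array was above every control array at both stages. PIP2-5 rose by 0.75 in expanding leaf (SE 0.0941, 1.68-fold, adjusted p = 9.71e-06) and by 0.47 in mature leaf (SE 0.0941, 1.39-fold, adjusted p = 0.00421). Seedling levels were 7.10, 7.01 and 7.24 without and 7.13, 7.12 and 7.15 with mannitol, and proliferating leaf had 8.23, 7.96 and 8.08 without and 7.86, 8.02 and 7.86 with it. The groups overlapped at both of these stages, with changes of 0.02 (adjusted p = 0.996) and -0.17 (adjusted p = 0.596). PIP2-1, PIP2-4 and PIP2-6 were not called. Their changes ran from -0.29, for PIP2-4 in proliferating leaf (adjusted p = 0.157), to 0.12, for PIP2-4 in mature leaf.

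Of 10 TIP genes, TIP2-1 and TIP1-1 were called, in opposite directions. TIP2-1 (AT3G16240), also known as delta-TIP, passes water and ammonia into the vacuole. In proliferating leaf it read 9.68, 9.72 and 9.56 on control arrays and 9.52, 9.16 and 8.95 under mannitol, and in expanding leaf 12.43, 12.44 and 12.27 on control arrays and 12.01, 12.01 and 12.08 under mannitol. Control and mannitol arrays did not overlap at either stage. TIP2-1 fell by 0.44 in proliferating leaf (SE 0.107, adjusted p = 0.0293) and by 0.35 in expanding leaf (SE 0.107, adjusted p = 0.0468). In seedlings the levels were 11.91, 11.99 and 11.94 without and 11.74, 11.66 and 11.71 with mannitol, and in mature leaf 12.15, 11.87 and 11.89 without and 11.88, 11.77 and 11.89 with it. The seedling groups did not overlap and the mature groups did, and neither change was called (-0.25, adjusted p = 0.473, and -0.13, adjusted p = 0.549). The call in proliferating leaf was lost in a fit of its own 6 arrays and on leaving out replicate 1 or 2 of the controls or 2 or 3 of mannitol, with a change of -0.60 to -0.31 and an adjusted p of up to 0.277. The call in expanding leaf was lost after quantile normalization, in a fit of its own arrays, and on leaving out replicate 1 or 2 of the controls or any single mannitol array, with a change of -0.40 to -0.32 and an adjusted p of up to 0.140.

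TIP1-1 (AT2G36830), or gamma-TIP, is a water channel of the vacuoles of vegetative tissue. In mature leaf it read 10.93, 10.67 and 10.71 without mannitol and 11.17, 11.10 and 11.08 with it, 2 groups that did not overlap. TIP1-1 rose by 0.34 (SE 0.0862, 1.27-fold, adjusted p = 0.0224). At the other stages its changes were below 0, at -0.08 in seedlings (adjusted p = 0.986), -0.14 in proliferating leaf (adjusted p = 0.677) and -0.15 in expanding leaf (adjusted p = 0.389), and none was called. The expanding arrays read 11.59, 11.58 and 11.40 without and 11.49, 11.24 and 11.40 with mannitol. Proliferating arrays read 10.78, 10.68 and 10.72 without and 10.50, 10.57 and 10.71 with it, and seedling arrays 10.83, 10.91 and 10.94 without and 10.83, 10.80 and 10.81 with it. The call in mature leaf was lost in a fit of its own 6 arrays and on leaving out replicate 2 or 3 of the controls or any single mannitol array, with a rise of 0.29 to 0.42 and an adjusted p of up to 0.106. The other 8 TIP genes were not called, with changes between -0.32 (TIP3-1, expanding leaf, adjusted p = 0.108) and 0.33 (TIP4-1, expanding leaf, adjusted p = 0.278).

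NIP1-2 (AT4G18910), whose protein passes arsenite and, in roots, aluminium malate, was called at more stages than any other member. On the expanding leaf arrays it read 6.39, 6.37 and 6.53 without mannitol and 7.45, 7.53 and 7.86 with it. On the mature leaf arrays it read 5.47, 5.83 and 5.78 without and 6.53, 6.69 and 6.78 with mannitol. At both stages every mannitol array lay above every control array. The rise was 1.18 in expanding leaf (SE 0.117, 2.27-fold, adjusted p = 4.06e-07) and 0.97 in mature leaf (SE 0.117, 1.96-fold, adjusted p = 1.92e-05). Seedlings read 7.24, 7.29 and 7.16 without and 7.91, 7.98 and 7.96 with mannitol, and NIP1-2 rose there by 0.72 (SE 0.117, 1.65-fold, adjusted p = 0.000795). In proliferating leaf the control arrays read 7.48, 7.27 and 7.63 and the mannitol arrays 7.96, 7.65 and 7.83, again without overlap, but the change of 0.35 (SE 0.117) was not called (adjusted p = 0.185).

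NIP1-1 (AT4G19030), the nearest measured relative of NIP1-2 by name, was called in seedlings, from a low level. Its seedling levels were 3.77, 3.82 and 3.69 in controls and 4.37, 4.01 and 4.62 under mannitol. The groups did not overlap, and NIP1-1 rose by 0.57 (SE 0.124, adjusted p = 0.0145). No fold is given, because the control mean of 3.76 lay below the 25th percentile of the loci and the table does not say which values are above background. The mannitol mean of 4.33 ± 0.306 (SD, n = 3) had a wide spread, and the call was lost in a fit of the seedling arrays alone and on leaving out replicate 1 or 3 of either group, with a rise of 0.43 to 0.73 and an adjusted p of up to 0.159. Proliferating leaf read 3.55, 3.61 and 3.72 without and 3.96, 3.78 and 3.82 with mannitol. Expanding leaf read 3.46, 3.83 and 3.42 without and 3.80, 3.84 and 3.63 with it, and mature leaf 3.64, 3.41 and 3.47 without and 3.58, 3.61 and 3.47 with it. The changes of 0.23 (adjusted p = 0.600), 0.19 (adjusted p = 0.463) and 0.04 (adjusted p = 0.894) were not called.

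The boric acid channels NIP5-1, NIP6-1 and NIP7-1 were not called under mannitol. NIP6-1 (AT1G80760), which carries boric acid towards young leaves, read 6.74, 6.45 and 6.75 in expanding control leaf and 5.92, 6.33 and 5.99 under mannitol. The groups did not overlap, and its change of -0.57 (SE 0.194) had an adjusted p of 0.0813. The 3 SIP genes were not called at any stage (unadjusted limma p under 0.05 for 1 in seedlings, 1 in proliferating leaf and 0 in expanding and mature leaf), and their largest changes were 0.32 for SIP2-1 in seedlings (adjusted p = 0.300) and -0.30 for SIP1-2 in proliferating leaf (adjusted p = 0.335).

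**Figure D2:**
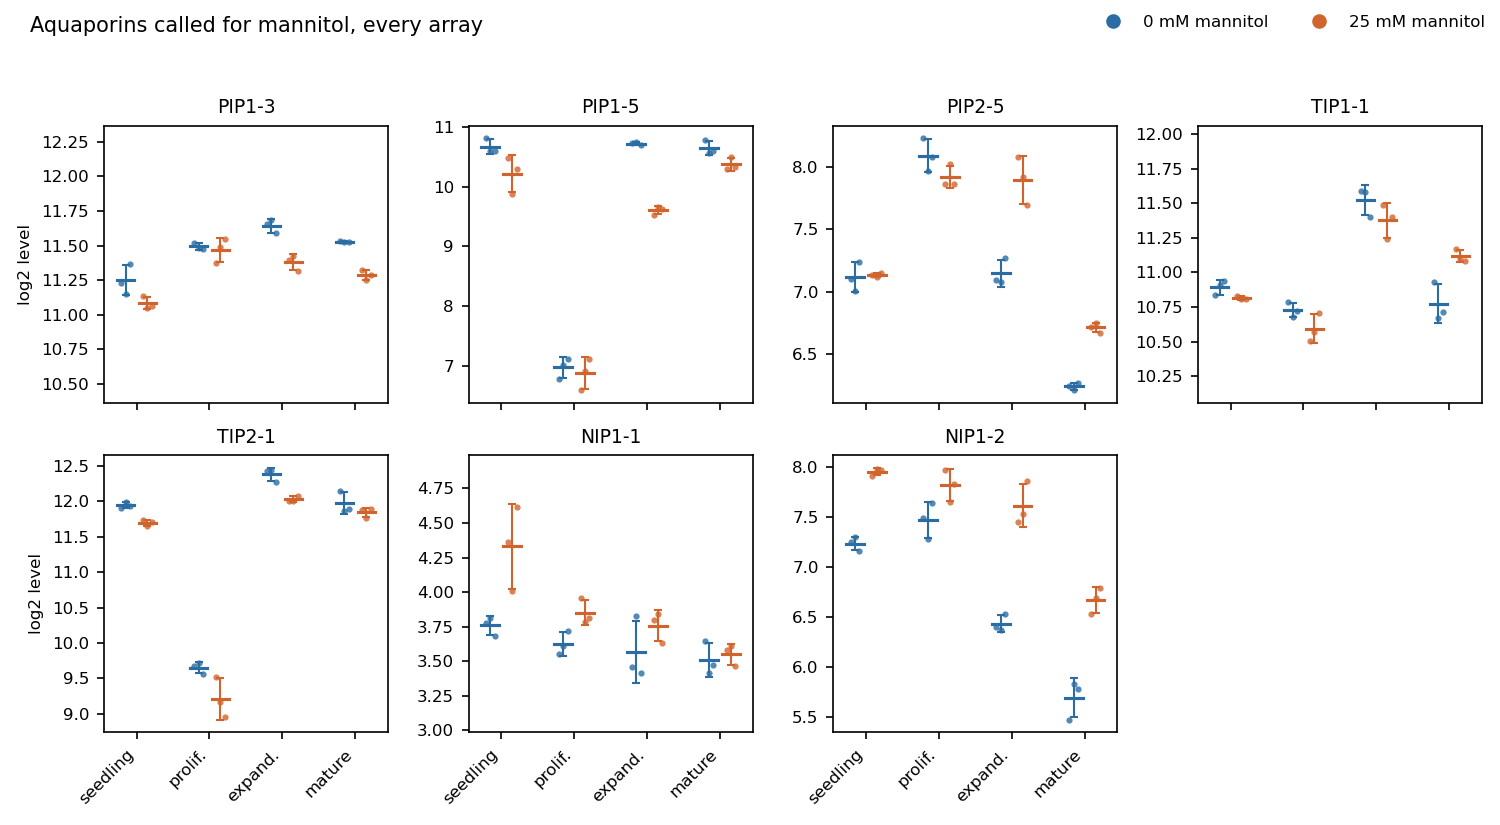
Log2 level on every array of the 7 aquaporins called in a mannitol comparison. Points are arrays, bars the group means and error bars the SD of 3 arrays, with blue for 0 mM and orange for 25 mM mannitol, and each panel has its own vertical range. In expanding leaf the orange points of PIP1-5 lie below the blue points, and those of PIP2-5 and NIP1-2 lie above them.

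Whether the mannitol response depended on the leaf stage was tested directly, as a difference between the responses of 2 stages. An F test over the 3 leaf stages called 4 members, PIP1-5 (adjusted p = 0.00337), PIP2-5 (adjusted p = 0.000451), TIP1-1 (adjusted p = 0.0206) and NIP1-2 (adjusted p = 0.00837), where 4.71% of all loci were called. From proliferating to expanding leaf the response of PIP1-5 became lower by 1.02 (SE 0.189, adjusted p = 0.00616), and those of PIP2-5 and NIP1-2 became higher by 0.92 (SE 0.133, adjusted p = 0.000510) and 0.83 (SE 0.165, adjusted p = 0.0110). These were 3 of 27 members, against 1.30% of all loci, 0.645% higher and 0.655% lower. From expanding to mature leaf the response of PIP1-5 became higher by 0.85 (SE 0.189, adjusted p = 0.0127) and that of TIP1-1 by 0.49 (adjusted p = 0.0252), 2 of 27 members against 3.41% of all loci called and 1.66% called higher. Between expanding and mature leaf the differences of PIP2-5 (-0.28, adjusted p = 0.296) and NIP1-2 (-0.21, adjusted p = 0.582) were not called. For this difference 3 of 4 PIP2 genes, PIP2-5 among them, had an unadjusted limma p under 0.05. Between proliferating and mature leaf the responses of PIP2-5 (0.64, adjusted p = 0.00829), TIP1-1 (0.48, adjusted p = 0.0325) and NIP1-2 (0.62, adjusted p = 0.0430) differed, all higher in mature leaf, 3 of 27 against 2.64% of all loci called and 1.26% called higher. The falls of TIP2-1 in proliferating and expanding leaf did not differ beyond their error (0.09, adjusted p = 0.886).

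The differences for TIP1-1, and that of NIP1-2 between proliferating and mature leaf, rested on single arrays. For TIP1-1, expanding to mature, the call was lost without expanding control replicate 1, expanding mannitol replicate 2, mature control replicate 3 or mature mannitol replicate 1 or 2 (0.42 to 0.57, adjusted p up to 0.113). Between proliferating and mature leaf it was lost without proliferating control replicate 1 or 3, proliferating mannitol replicate 1 or 2, mature control replicate 2 or 3 or any mature mannitol array (0.43 to 0.56, adjusted p up to 0.0986). For NIP1-2 it was lost after centring or quantile normalization and without replicate 1 or 3 of either control group or replicate 2 or 3 of either mannitol group (0.51 to 0.72, adjusted p up to 0.130). The F test of TIP1-1 was lost without mature control replicate 2 or 3 or mature mannitol replicate 1 (adjusted p up to 0.0676). All of these, and the difference of NIP1-2 between proliferating and expanding leaf (adjusted p = 0.0574), were lost in a fit of only the groups compared. The differences of PIP1-5 and PIP2-5 were called under every alternative.

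More aquaporins were called between leaf stages than under mannitol, in a setting in which many loci were called. From proliferating to expanding control leaf 15 of 27 members rose and 5 fell, against 60.6% of all loci called, 29.1% higher and 31.5% lower. Their median change was 0.43, beside 0.04 for all loci. The largest rises were those of TIP2-2, PIP1-5, PIP1-1, TIP2-1 and NIP6-1, and the members that fell were NIP1-2, PIP2-5, PIP1-4, SIP1-1 and SIP2-1. From expanding to mature control leaf 6 rose and 7 fell, against 40.4% of all loci, 18.8% higher and 21.6% lower, and the median change was -0.08 beside 0.01 for all loci. Bulk RNA cannot tell fewer cells of a type apart from less RNA per cell. Centring the arrays raised the median change of all loci by 0.10 between proliferating and expanding control leaf and by 0.19 between proliferating and mature control leaf. It turned the 6 rises and 7 falls between expanding and mature leaf into 11 rises and 7 falls, and no called member changed sign.

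In the PIP1 group, PIP1-1 (AT3G61430) read 9.03, 9.19 and 9.03 in proliferating, 12.31, 12.18 and 12.09 in expanding and 12.93, 12.93 and 12.89 in mature control leaf. It was higher at each later stage without overlap, by 3.10 (SE 0.0995, 8.60-fold, adjusted p = 2.23e-17) and then by 0.73 (adjusted p = 2.56e-06). PIP1-5 rose by 3.75 into expanding leaf (SE 0.134, 13.5-fold, adjusted p = 1.2e-16), the levels being those given above, and its change into mature leaf was -0.08 (adjusted p = 0.710). PIP1-2 (AT2G45960), which has been tied to water and carbon dioxide transport, read 11.25, 11.24 and 11.26, then 12.50, 12.53 and 12.56, then 12.69, 12.84 and 12.80. It rose by 1.28 (adjusted p = 4.41e-13) and by 0.25 (adjusted p = 0.00950), and the second rise was not called in a fit of the 6 arrays alone (adjusted p = 0.106). Against these, PIP1-3 read 11.52, 11.48 and 11.48 in proliferating control leaf and was not called for either step (0.15, adjusted p = 0.0790, and -0.11, adjusted p = 0.230). After centring its rise into expanding leaf was called. PIP1-4 lay between 11.29 and 12.37 on all 24 arrays and fell by 0.31 into expanding leaf (adjusted p = 0.00329).

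Of the PIP2 genes, PIP2-6 (AT2G39010) and PIP2-1 (AT3G53420) rose into expanding leaf. PIP2-1 is a water and hydrogen peroxide channel of veins and guard cells among other cells. PIP2-6 read 9.42, 9.66 and 9.67 in proliferating, 11.95, 11.95 and 11.90 in expanding and 12.05, 12.07 and 12.09 in mature control leaf, a rise of 2.35 (SE 0.0884, 5.10-fold, adjusted p = 2.86e-16) followed by a change of 0.14 that was not called (adjusted p = 0.249). PIP2-1 read 11.62, 11.62 and 11.44, then 13.11, 13.20 and 13.10, then 13.30, 13.31 and 13.39. It rose by 1.57 (SE 0.0830, 2.98-fold, adjusted p = 9.47e-14), and the later change of 0.20 had an adjusted p of 0.0585 and was called only after centring. PIP2-4 (AT5G60660) was highest in expanding leaf, with 5.35, 5.52 and 5.60, then 6.76, 6.35 and 6.57, then 5.92, 5.88 and 5.95. It rose by 1.07 (adjusted p = 7.07e-10) and then fell by 0.64 (adjusted p = 6.44e-06). PIP2-5 ran the other way from PIP2-6 and PIP2-1 and fell at both steps, by 0.94 (SE 0.0941, adjusted p = 6.34e-09) and by 0.90 (adjusted p = 5.21e-08). Its 3 proliferating, 3 expanding and 3 mature control arrays did not overlap, and the fall over both steps was 3.60-fold.

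TIP2-2 (AT4G17340) spanned the widest range of all measured aquaporins, 6.40 log2 units between its lowest and highest group means. It read 5.40, 5.55 and 5.52 in proliferating, 9.72, 9.50 and 9.86 in expanding and 11.72, 11.69 and 11.81 in mature control leaf. The groups were far apart, and TIP2-2 rose by 4.21 (SE 0.141, 18.5-fold, adjusted p = 4.51e-17) and then by 2.04 (SE 0.141, 4.12-fold, adjusted p = 7e-11), which is 76.2-fold over both steps. TIP2-1 rose by 2.73 (SE 0.107, 6.62-fold, adjusted p = 6.29e-16) and then fell by 0.41 (adjusted p = 0.00361). TIP1-1 and TIP1-2 (AT3G26520) were highest in expanding leaf. TIP1-2 read 12.21, 12.25 and 12.26, then 12.91, 12.83 and 12.86, then 12.29, 12.21 and 12.28, a rise of 0.63 (adjusted p = 4.47e-07) and a fall of 0.61 (adjusted p = 2.07e-06). TIP1-1 rose by 0.80 (adjusted p = 2.44e-08) and fell by 0.75 (adjusted p = 2.18e-07). Over both steps the change was 0.04 for TIP1-1 (95% interval -0.13 to 0.22) and 0.02 for TIP1-2 (-0.15 to 0.19). These values depend on the scaling, since after centring both genes were called higher in mature than in proliferating control leaf. After quantile normalization neither was called.

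The remaining TIP genes are known from other organs, TIP3-1 and TIP3-2 from seeds, TIP1-3 and TIP5-1 from pollen, and TIP2-3 and TIP4-1 from roots. Over all 24 arrays TIP3-1 ran from 4.95 to 6.03, TIP3-2 from 3.41 to 4.52, TIP1-3 from 4.52 to 5.32, TIP5-1 from 3.86 to 4.67, TIP2-3 from 3.96 to 4.89 and TIP4-1 from 3.82 to 4.92. TIP3-1 (0.46), TIP3-2 (0.43) and TIP1-3 (0.34) were called higher in expanding than in proliferating control leaf, where 29.1% of all loci were. At this step 3 of 7 root markers (EXPA7, RHD6 and CASP1) and 1 of 4 seed markers (CRC) were also called higher, and PYK10 lower. The calls of EXPA7 and RHD6 were lost in 8 and 7 of 12 alternatives. Whether these TIP calls and those of the markers have a common source was not tested. From expanding to mature control leaf 0 of the 6 TIP genes were called as deposited, against 40.4% of all loci, but centring added calls of TIP2-3, TIP3-2 and TIP5-1, and quantile normalization added TIP2-3, TIP4-1 and TIP5-1. The call of TIP1-3 (adjusted p = 0.0361) came with overlapping groups and was lost in a fit of those 6 arrays and without replicate 1 or 3 of proliferating control or 1 or 2 of expanding control, with an adjusted p of up to 0.225.

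NIP6-1 rose at both steps. It read 4.36, 3.70 and 3.74 in proliferating, 6.74, 6.45 and 6.75 in expanding and 8.98, 9.04 and 8.77 in mature control leaf. The 3 stages did not overlap, and the rises were 2.72 (SE 0.194, adjusted p = 2.02e-11) and 2.29 (SE 0.194, 4.87-fold, adjusted p = 1.95e-09). The proliferating mean of 3.93 lay below the 25th percentile of the loci, so no fold is given for the first of these rises. NIP1-2 fell at both steps, by 1.03 (SE 0.117, 2.05-fold, adjusted p = 4.86e-08) and by 0.74 (adjusted p = 1.9e-05). NIP5-1 (AT4G10380), a boric acid channel of root uptake, read 4.58, 4.54 and 4.34, then 4.33, 4.67 and 4.33, then 4.64, 4.76 and 4.85. As deposited it was not called (-0.04, adjusted p = 0.790, and 0.31, adjusted p = 0.0689). After centring or quantile normalization NIP5-1 was called higher in mature than in expanding leaf. NIP7-1 (AT3G06100), known from anthers, read 4.65, 5.13 and 5.05, then 5.15, 5.90 and 5.23, then 5.13, 5.13 and 5.21. It was called higher in expanding leaf (0.48, adjusted p = 0.0183), but not in a fit of those 6 arrays or without proliferating control replicate 1 or expanding control replicate 2 (adjusted p up to 0.201).

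The changes of the SIP genes at these 2 steps lay between -0.40 and 0.61. SIP1-1 (AT3G04090) read 9.49, 9.49 and 9.69, then 9.04, 9.33 and 9.10, then 9.77, 9.55 and 9.57 in control leaf. SIP2-1 (AT3G56950) read 7.28, 7.39 and 7.45, then 7.09, 6.72 and 7.15, then 7.62, 7.74 and 7.44. Both were lowest in expanding leaf, where SIP1-1 fell by 0.40 (adjusted p = 0.000955) and SIP2-1 by 0.39 (adjusted p = 0.00556), and both rose into mature leaf, by 0.47 (adjusted p = 0.000353) and 0.61 (adjusted p = 0.000153). The fall of SIP2-1 was not called without expanding control replicate 2 (adjusted p = 0.0611). SIP1-2 (AT5G18290) read 4.61, 4.48 and 4.66, then 4.51, 4.87 and 4.85, then 4.35, 4.27 and 4.40, with a change of 0.16 (adjusted p = 0.255) and a fall of 0.40 (adjusted p = 0.00961). From proliferating to mature control leaf 0 of the 3 SIP genes were called, beside 13 rises and 4 falls in the whole family and 67.7% of all loci, 34.1% higher and 33.6% lower. In the limma fit 0 of these SIP genes had an unadjusted p under 0.05. After centring the family had 21 rises and 4 falls, with SIP1-1 and SIP2-1 called, and after quantile normalization 14 rises and 5 falls, with SIP1-2 and SIP2-1 called.

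**Figure D3:**
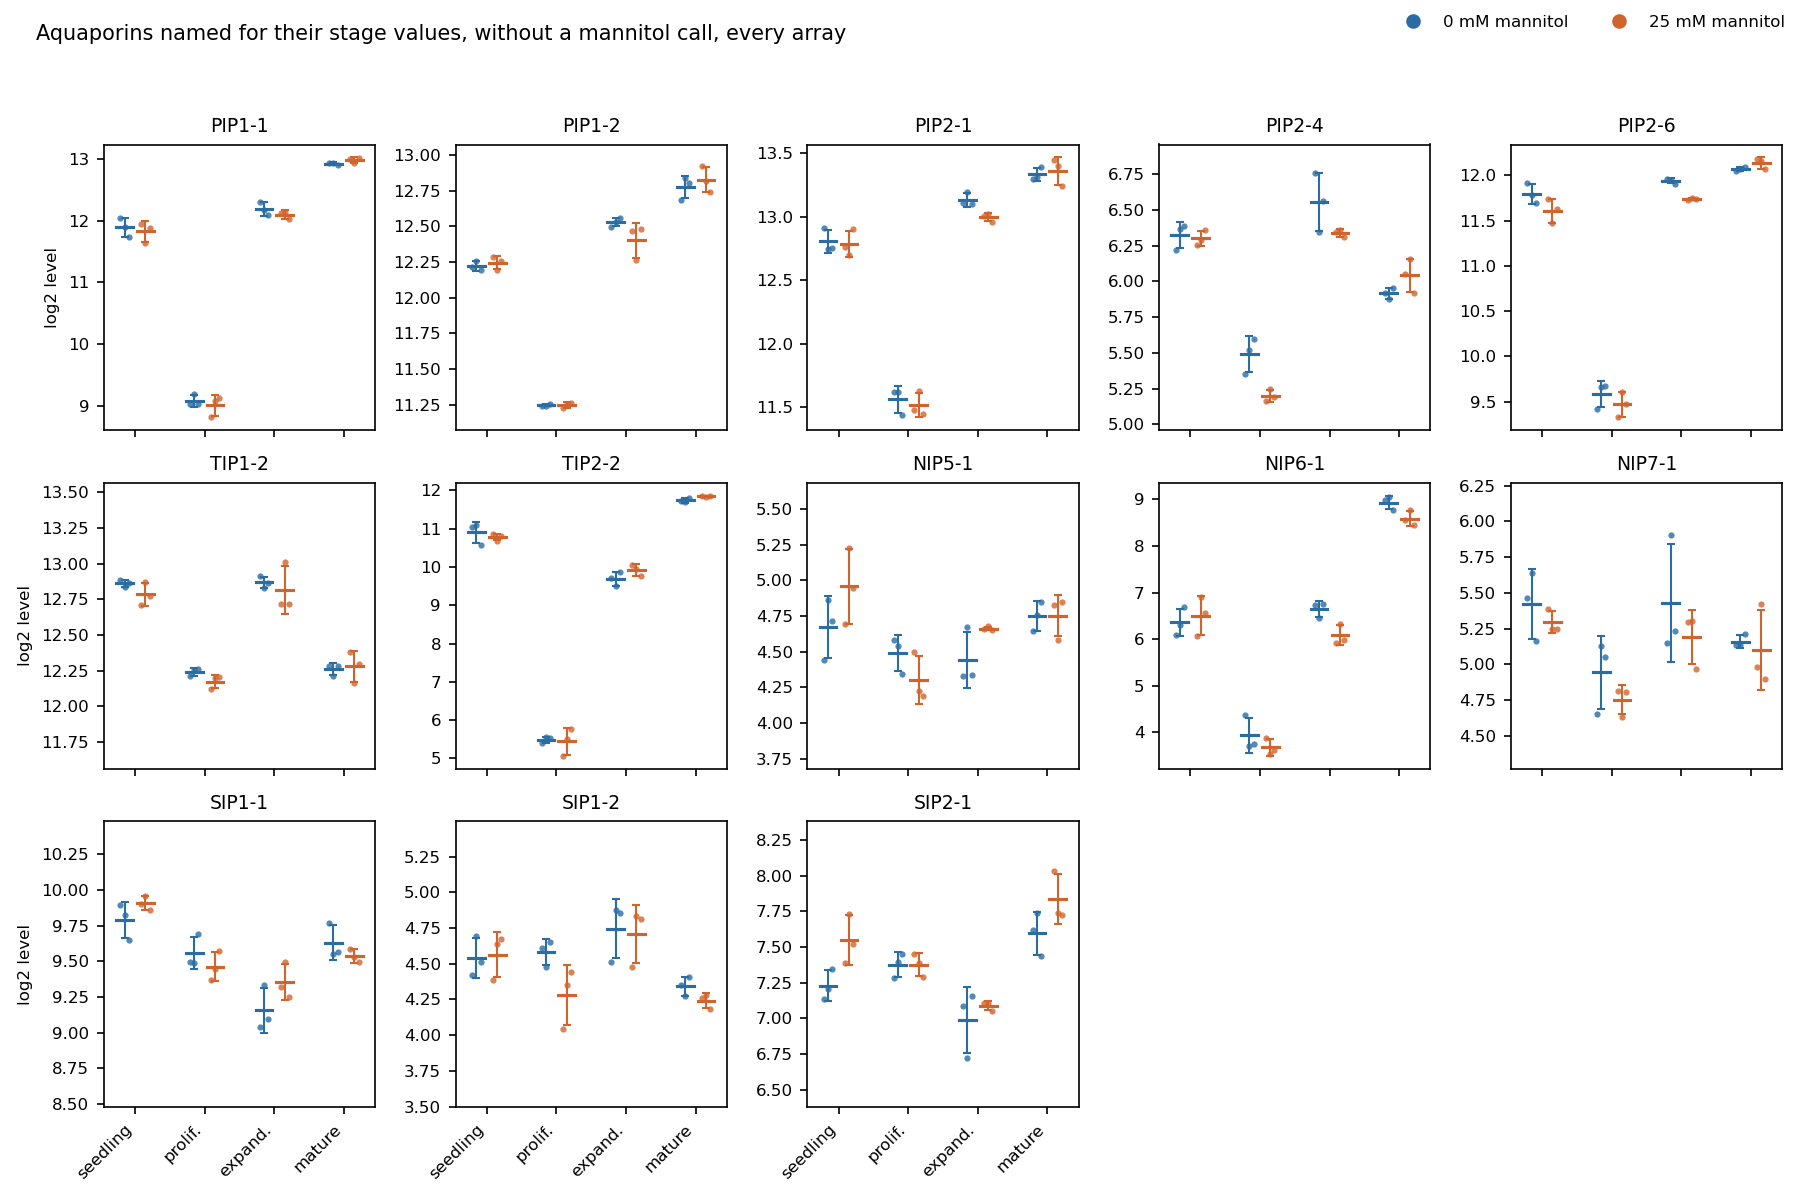
Log2 level on every array of the 13 aquaporins named for their stage values that had no mannitol call. Points are arrays, bars the group means and error bars the SD of 3 arrays, with blue for 0 mM and orange for 25 mM mannitol, and each panel has its own vertical range. PIP1-1, PIP2-6, TIP2-2 and NIP6-1 are lowest in proliferating leaf, TIP1-2 and PIP2-4 peak in expanding leaf, and blue and orange lie close together in most panels.

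In mannitol leaf 18 of 27 members rose and 2 fell from proliferating to expanding leaf, against 65.0% of all loci, 33.2% higher and 31.8% lower, with a median of 0.44 beside 0.08. From expanding to mature leaf 9 rose and 7 fell, against 40.1% of all loci, 18.6% higher and 21.5% lower, with a median of -0.09 beside -0.04. The 5 largest rises of control leaf were also called in mannitol leaf. TIP2-2 rose by 4.48 into expanding leaf, PIP1-1 by 3.08, TIP2-1 by 2.82, NIP6-1 by 2.40. PIP1-5 rose by 2.73 (adjusted p = 3.59e-14), which is less than the 3.75 in control leaf by the difference tested above, and then by a further 0.77 into mature leaf (adjusted p = 5.52e-05). PIP2-5 (-0.02, adjusted p = 0.865) and NIP1-2 (-0.21, adjusted p = 0.129) were not called lower in expanding mannitol leaf, although both fell at that step in control leaf. Into mature mannitol leaf they fell by 1.18 and 0.94.

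**Figure D4:**
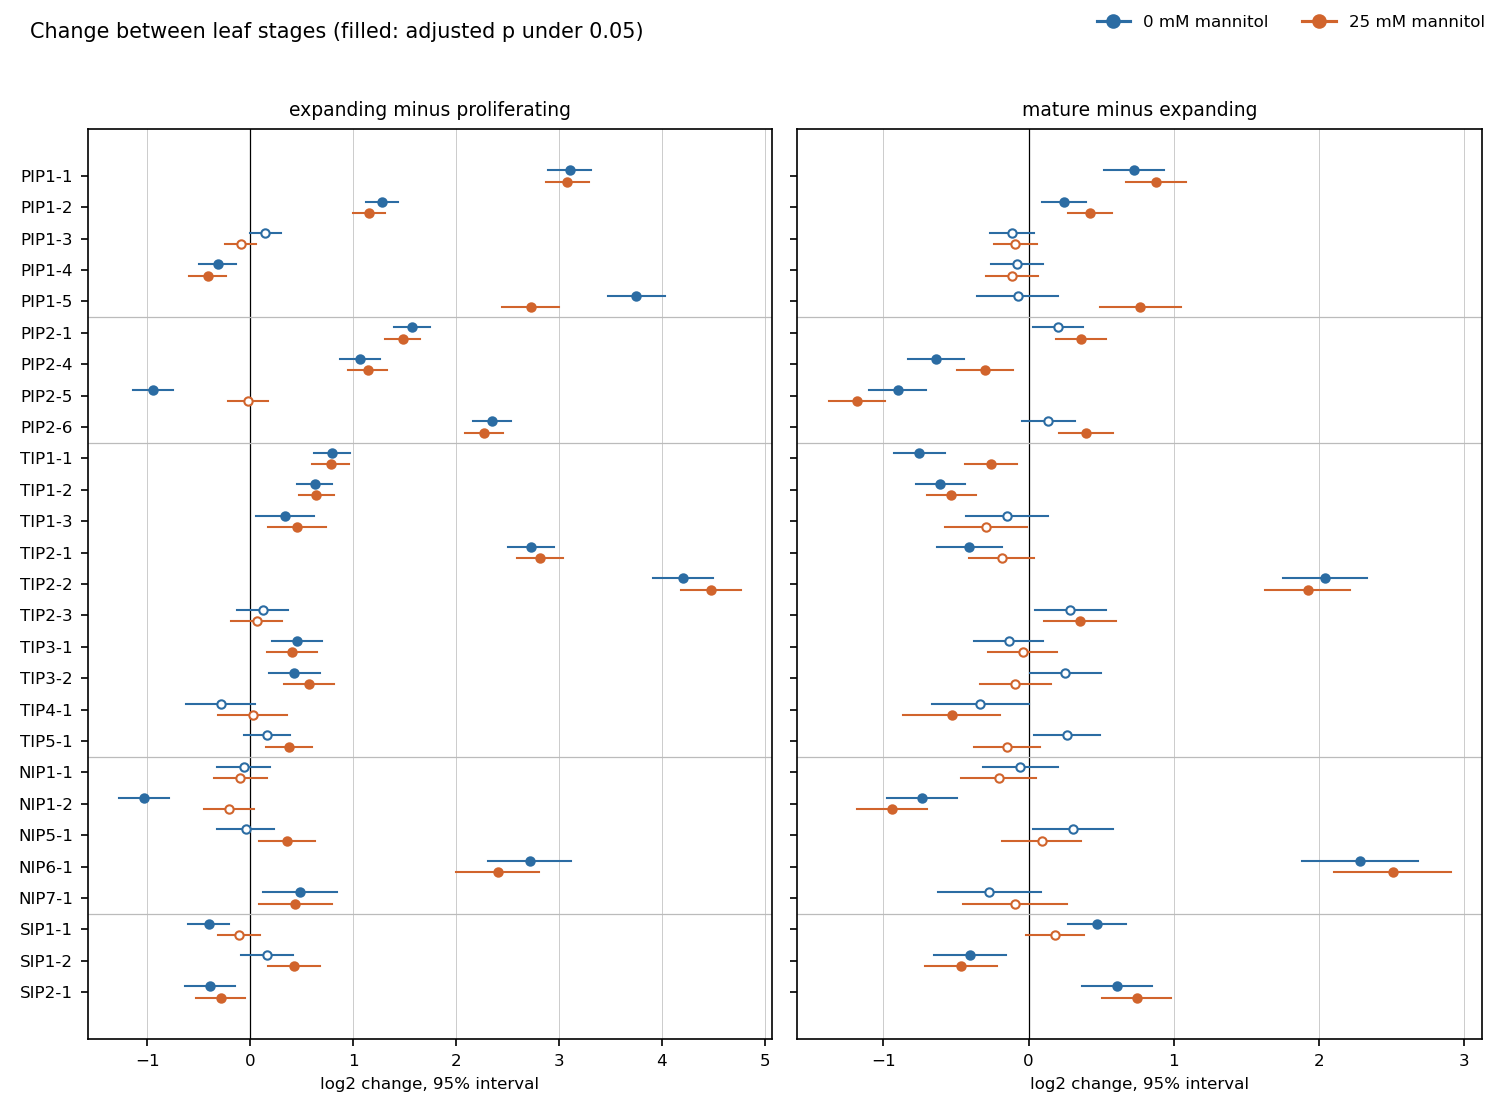
Log2 change of each of the 27 aquaporins from proliferating to expanding leaf and from expanding to mature leaf, in control leaf (blue) and mannitol leaf (orange). Points are estimates from 3 arrays a group, lines 95% intervals, and filled points have an adjusted p under 0.05. Blue and orange stand apart for PIP1-5, PIP2-5 and NIP1-2 in the left panel and for PIP1-5 and TIP1-1 in the right panel.

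Control seedlings, whose vegetative part holds leaves of several ages, differed from expanding control leaf in 11 of 27 members, with 3 higher and 8 lower, against 32.8% of all loci, 14.5% higher and 18.3% lower. The median was -0.06 beside -0.08. TIP2-2 was higher in seedlings by 1.21 (adjusted p = 4.74e-07), NIP1-2 by 0.80 (adjusted p = 1.12e-05) and SIP1-1 by 0.63 (adjusted p = 2.19e-05). TIP1-1 was lower by 0.63, TIP2-1 by 0.43, and 4 of 5 PIP1 genes by 0.30 to 0.42. PIP2-1 was lower by 0.33 and TIP3-1 by 0.37. The call of PIP1-1 (adjusted p = 0.0251) was lost without seedling control replicate 2 or 3 or expanding control replicate 1 (adjusted p up to 0.140), and that of TIP3-1, whose groups overlapped, without seedling control replicate 1 or 3 or expanding control replicate 2 (adjusted p up to 0.122).

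Genes whose products work with aquaporins were given the same test. Among 13 measured partners and trafficking genes, 0 were called under mannitol in seedlings or proliferating leaf, with 2 at an unadjusted limma p under 0.05 at each. The shares of all loci called there were 1.45% and 1.81%. In expanding leaf 3 rose and 1 fell, against 7.65% of all loci. SYP121, a syntaxin that delivers PIP proteins to the plasma membrane, rose by 0.96 (SE 0.152, adjusted p = 0.000167) from a mean of 7.19 to 8.16. TSPO, which binds a PIP2 channel and lowers its amount, rose by 0.51 (adjusted p = 0.0256), and RMA2, of a family of ubiquitin ligases whose member RMA1 acts on PIP2 channels, fell by 0.47 (adjusted p = 0.0356). The receptor kinase BAK1 rose by 0.29 (adjusted p = 0.0400), a call that was lost with the replicate number as a block (adjusted p = 0.0520). That call was also lost after centring and in a fit of only the groups compared. In mature leaf 2 rose and 1 fell, against 4.83% of all loci. TSPO rose there by 1.22 (SE 0.141, adjusted p = 1.27e-05) from 5.65 to 6.87, VAMP721, a vesicle protein of secretion, rose by 0.41 (adjusted p = 0.000960), and RMA1 fell by 0.57 (adjusted p = 0.00664), though not without control replicate 3 (adjusted p up to 0.0641). In a fit of only the groups compared, VAMP721 (limma adjusted p = 0.0515) and RMA1 were not called. The expanding leaf calls of TSPO, RMA2 and BAK1 each depended on at least 4 single arrays, among them control replicates 1 and 3 and mannitol replicates 1 and 2, with an adjusted p of up to 0.268. Those of SYP121, and of TSPO in mature leaf, were kept under every alternative.

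Proton pumps supply the gradients across the membranes in which PIP and TIP channels lie. Of 11 plasma membrane pumps 1 was called under mannitol, AHA11, which fell by 0.48 in seedlings (SE 0.103, adjusted p = 0.0138), but not when replicate 3 of the controls or 2 of mannitol was left out (adjusted p up to 0.117). Of 14 vacuolar pump subunits 0 were called under mannitol by limma at the 4 stages, where 0 to 3 had an unadjusted p under 0.05. The shares of all loci called were 1.45% in seedlings and 1.81%, 7.65% and 4.83% in proliferating, expanding and mature leaf. With shares this small, 0 or 1 call in a short list does not show that its genes did not respond. From proliferating to expanding control leaf 11 of 14 vacuolar subunits rose and 0 fell, with VHA-a3 at 1.22, VHA-c1 at 1.15 and VHA-E3 at 1.12, and 5 of 11 plasma membrane pumps rose and 2 fell, with AHA3 at 5.91 and AHA2 at 2.01, where 29.1% of all loci rose and 31.5% fell. Of these calls that of VHA-c3 was lost with the replicate block (adjusted p = 0.0521 against 0.0436) and in 6 other alternatives, and AHA8, 1 of the 2 pumps that fell, lost its call in 8 of 12 alternatives, centring and quantile normalization among them. From expanding to mature control leaf 3 vacuolar subunits and AHA2 fell (AHA2 by 1.47), against 21.6% of all loci. The falls of VHA-C and VHA-D were lost after centring and in a fit of only the groups compared, and that of VHA-C also without mature control replicate 3 (adjusted p up to 0.0823). Of 3 boron transporters 0 were called under mannitol, with 0 or 1 at an unadjusted p under 0.05, against the same shares of all loci as for the pumps. BOR1, an exporter that loads boron into the xylem, rose by 1.02 into expanding control leaf and fell by 0.54 into mature leaf, and BOR2 rose by 0.61 into mature leaf.

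Markers of other cell types moved with the same comparisons, and their part in the aquaporin values was not tested. From proliferating to expanding control leaf 9 of 10 vascular and 6 of 6 guard cell markers rose and 4 of 4 dividing cell markers fell. Of all loci 29.1% rose and 31.5% fell at that step. The vascular markers' mean level was 4.88 to 5.08 on proliferating and 7.41 to 7.64 on expanding control arrays, and 6.41 to 6.61 on mature control arrays, where 7 of 10 fell and 1 rose. From expanding to mature control leaf 18.8% of all loci rose and 21.6% fell. Guard cell markers had mean levels of 4.14 to 4.27, 6.22 to 6.29 and 5.85 to 6.04 at these 3 stages. Under mannitol 2 of 6 guard cell markers fell in expanding leaf, the potassium channel KAT1 from 7.32 to 6.32 (adjusted p = 6.63e-05) and the transcription factor MYB60 by 0.53 on the log2 scale (adjusted p = 0.0385, up to 0.190 without replicate 1 or 3 of either group), and the list's mean level was 5.83 to 6.03 there. Of all loci 3.62% fell. Without a call, HT1 and GORK were also lower on average, and FAMA (7.03 to 7.24) and SLAC1 (4.91 to 5.03) were higher. KAT1 and MYB60 also fell in seedlings, where 1.45% of all loci were called. The list's mean level there was 5.95 to 6.30 in controls and 5.59 to 5.83 under mannitol. In mannitol expanding leaf 1 of 10 vascular markers fell (SEOR1, -0.54, adjusted p = 0.0466) and 1 of 4 dividing cell markers rose (KN, 0.48, adjusted p = 0.0478), and both calls were lost when any 1 of those 6 arrays was left out. Of all loci 4.02% rose and 3.62% fell at this stage. Without a call, CYCB1;1 (4.49 to 4.90) and PCNA1 (7.56 to 7.85) were also higher and AN3 (4.68 to 4.29) was lower. An unadjusted limma p under 0.05 was seen for 3 of the 4 dividing cell markers. The list means were 7.29 to 7.54 for vascular and 6.10 to 6.21 for dividing cell markers. In mature leaf PCNA1 rose by 0.42 (adjusted p = 0.0425, and up to 0.134 when any 1 of the 6 arrays was left out), with a mean level of the dividing cell markers of 4.93 to 5.07 under mannitol. Of all loci 2.99% were called higher there. Without a call, KN was also higher (5.20 to 5.44), and CYCB1;1 (4.43 to 4.20) and AN3 (4.34 to 4.23) were lower. PYK10 rose by 1.91 in expanding leaf (adjusted p = 0.000114) and by 2.09 in mature leaf (adjusted p = 0.000117). It was the only 1 of 7 root markers called at these stages, and the list's median changes were -0.07 and -0.14. Without a call, the other root markers were lower on average in expanding leaf, and all of them but EXPA7 in mature leaf.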

How the data were processed

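The values are log2 levels that the authors deposited, with 1 row per locus. RMA made them, per the submitters' processing notes, and its version and probe grouping are not stated in those notes. The log2 scale was inferred from the range of 2.52 to 14.4. No further background correction or normalization was applied. The table has 20777 loci on 24 arrays, arrays of a group correlated at 0.990 to 0.997, and 0 pairs of arrays were identical. Members were found by locus code, and all 35 loci have a name in RefSeq's gene table (TAIR10.1).

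The fit was limma's (lmFit and eBayes, limma 3.58.1 in R 4.3.3) with 8 group means over 24 arrays, with a prior SD of 0.137 on 6.02 degrees of freedom. Two-sided p-values were adjusted with the Benjamini-Hochberg method over all loci of a comparison. Per the series' design text, replicates are independent experiments. The fit was tested on simulated data with independent noise on every array, unlike the correlated arrays described next. For mannitol against control in expanding leaf it called 62.7% of simulated log2 changes of 0.5 and 97.0% of those of 1. Of its calls 3.89% were false. Replicate numbers are shared between groups, and deviations of same-numbered control and mannitol arrays correlated at 0.177 to 0.429 in seedlings, 0.267 to 0.334 in proliferating and 0.118 to 0.210 in expanding leaf, all above 0.1, so that the numbers were taken to pair these arrays. In mature leaf (0.0593 to 0.423) they did not all pass. This pairing comes from the data, since the labels do not say that a number marks a shared experiment. Between leaf stages, deviations of same-numbered control arrays correlated at -0.104 to 0.0155 (proliferating and expanding) and -0.102 to 0.0556 (expanding and mature). The replicate block, other scalings, a filter on dim loci, an intensity trend, fits of fewer groups and leaving out each array were tried. Values of every array are given for members called in a mannitol comparison and for the 3 members of each subfamily with the largest change in each of 2 control stage steps. The members and lists were chosen with earlier results of these data known.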

Additional observations from a re-analysis of the deposited data

Results flagged for a closer look

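For 4 aquaporins the response to mannitol differed between leaf stages in a test of the difference itself, given here as the later minus the earlier stage on the log2 scale. The response of PIP1-5 was lower in expanding than in proliferating leaf by 1.02, a difference of -1.02, and higher in mature than in expanding leaf by 0.85. For PIP2-5 it was higher by 0.92 in expanding and by 0.64 in mature leaf, each against proliferating leaf. For NIP1-2 it was higher by 0.83 in expanding and by 0.62 in mature leaf, each against proliferating leaf. TIP1-1 had a higher response in mature leaf, by 0.49 against expanding and by 0.48 against proliferating leaf. The calls for TIP1-1 were lost in 6 of 18 alternatives against expanding and in 10 of 18 against proliferating leaf. That of NIP1-2 between proliferating and mature leaf was lost in 11 of 18, centring and quantile normalization among them, and that between proliferating and expanding leaf in 1 of 18. Comparisons that name the same stage share its arrays, so that the values of a gene are not independent of each other.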

How the results depend on the processing

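Of 23 mannitol results for single aquaporins, 13 kept their call under every alternative and 10 lost it under at least 1. For stage results the numbers were 82 and 15 of 97, and for the other lists 76 and 22 of 98, with 0 reversed. Among the mannitol calls kept throughout were NIP1-2 in seedlings, expanding and mature leaf, PIP2-5 in expanding and mature leaf and PIP1-5 in expanding leaf. In a fit of only the groups compared, the aquaporin count was 1 in place of 2 in seedlings and 0 in place of 1 in proliferating leaf. It was 3 in place of 5 in expanding leaf and 2 in place of 3 in mature leaf. For the difference of response between proliferating and expanding leaf it was 2 in place of 3. It was 1 in place of 2 between expanding and mature leaf and 1 in place of 3 between proliferating and mature leaf. The F test called 3 in place of 4 in the same fit. That fit has fewer arrays to estimate the spread. Without the loci below the 25th percentile the seedling count was 1, because NIP1-1 was then not tested.

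Leaving out single arrays gave 1 to 2 calls in seedlings (1 when replicate 1 or 3 of the controls or 3 of mannitol was left out), 0 to 1 in proliferating leaf (0 when replicate 1 or 2 of the controls or 2 or 3 of mannitol was), 3 to 6 in expanding leaf (3 when replicate 1 of the controls or 1 or 3 of mannitol was) and 2 to 3 in mature leaf. For the differences of response it gave 3 to 3, 1 to 3 between expanding and mature, and 1 to 3 between proliferating and mature leaf. The 0 in proliferating leaf is from limma, in which 5 members had an unadjusted p under 0.05 with all arrays.

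The replicate block gave each replicate number the same effect at all 4 stages, and a pairing of control and mannitol arrays within a stage was not fitted. This block left the 4 mannitol counts at 2, 1, 5 and 3. It added SIP1-2 from proliferating to mature control leaf (adjusted p = 0.0427 against 0.0850) and TIP1-3 from expanding to mature mannitol leaf (0.0296 against 0.0972) and changed no other aquaporin call. Centring or quantile normalization added a fall of PIP1-3 in mature leaf (3 higher and 1 lower), and quantile normalization removed TIP2-1 in expanding leaf (2 and 2). The planned pairing of members by protein identity was not run, since no sequence table was at hand.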
